A study of Homo sapiens with 4 samples.

Results

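To describe which phosphoinositide kinase mRNAs were recovered with IGF2BP3, the peaks of 10 genes were collected from both IGF2BP3 RIP replicates. The genes were PIK3CA, PIK3CB and PIK3R1 of class I, PIK3C2A and PIK3C2B of class II, PIK3C3 and PIK3R4 of class III, the phosphatidylinositol 4-kinase genes PI4KA and PI4KB, and PIKFYVE. They were listed by name, with earlier results of these data known. A peak was counted for a gene when its summit lay in a GENCODE 44 exon of that gene. This gave 174 of 44622 peaks in replicate 1 and 158 of 42723 in replicate 2, or 166.0 ± 11.3 peaks (SD, n = 2). No summit among them lay in an exon of another gene.

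RNA immunoprecipitation followed by sequencing (RIP-seq) recovers an RNA-binding protein with an antibody and sequences the RNA that comes with it. The cells were OE-19, an established line of adenocarcinoma of the esophagogastric junction, grown in RPMI1640 medium, with no drug treatment or genetic change in the labels. The labels state fixation with UV light before lysis, which the RIP method of the study does not mention. The group analysed held 2 libraries made with anti-IGF2BP3, and 2 input libraries made without antibody were not analysed here. The study calls its RIP-seq replicates biological, and the labels do not add whether they were separate cultures.

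Phosphoinositide kinases add phosphate to the inositol ring of membrane lipids, and the lipid made marks a membrane for the proteins that bind it. Class I enzymes, a catalytic subunit bound to a regulatory subunit, act below growth factor receptors and recruit AKT. Class II and class III enzymes act mainly on endocytic and autophagic membranes. The phosphatidylinositol 4-kinases supply lipid at the plasma membrane and the Golgi, and PIKFYVE acts on endosomes and lysosomes. IGF2BP3 is a cytoplasmic RNA-binding protein known for binding and stabilising mRNAs, among them mRNAs with N6-methyladenosine (m6A).

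Each deposited peak had a fold enrichment, the ratio of RIP pileup to local background at the summit from the caller of the authors, and a q, its p corrected for multiple testing. Which library served as background was not stated, and the depth behind the lists is unknown, which leaves counting error without an interval. The lists reached down to an uncorrected p near 0.01, and a q of 1 was given for 60.9% ± 0.741 of the peaks counted here and for 63.4% ± 3.62 of all exonic peaks (SD, n = 2 each). With 1 group of 2 libraries, no test between conditions was possible, and the values are a description. Since mRNA levels in the input were not analysed, a difference between genes in the number of peaks and a difference in the amount of their mRNA cannot be told apart.

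An exonic summit was present in both replicates for 9 of the 10 genes, PIK3C3 being the exception. Among all 20033 protein-coding genes the share was 28.0%, and among the 4110 with a CDS from 2175 to 6309 nt, the range of the 10 genes, it was 48.5%. At least 1 peak with a q of at most 0.05 was found in either replicate for 6 of 10 genes, against 10.3% of all protein-coding genes. The same 6 genes, PIK3CB, PIK3R1, PIK3C2A, PIK3C2B, PI4KA and PIKFYVE, had such a peak in both replicates, against 4.93%. PIK3CA, PIK3R4, PI4KB and PIK3C3 had none in either. The 10.3% and the 4.93% were taken over all protein-coding genes, without the limit on CDS length. All these shares are a description, since the 10 genes were chosen with earlier results of these data known.

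The number of peaks differed widely between the genes and little between the replicates. PIK3C2A had the most, with 31 in replicate 1 and 33 in replicate 2, followed by PI4KA with 29 and 31. PIK3C2B had 31 and 25 and PIKFYVE had 28 and 27, so that the order of these 4 genes depended on the replicate. Lower counts were found for PIK3R1, with 19 and 15, and PIK3CB, with 12 and 10. PIK3R4 followed with 10 and 8, PIK3CA with 8 and 5, PI4KB with 5 and 4, and PIK3C3 with 1 and 0. From PIK3R1 down, the order was the same in both replicates, but PIK3CB and PIK3R4 met at 10, PIK3R4 and PIK3CA at 8 and PIK3CA and PI4KB at 5, so these neighbours did not differ beyond their spread. Per kb of canonical mRNA, the order began with PI4KA at 4.44 ± 0.210 peaks, PIK3C2A at 3.80 ± 0.168 and PIK3C2B at 3.66 ± 0.554 (SD, n = 2 each). Here too PIK3C2A and PIK3C2B did not differ beyond the replicate spread, with 3.68 and 3.92 for PIK3C2A and 4.05 and 3.27 for PIK3C2B. The lowest densities were those of PIK3CA at 0.702 ± 0.229 and PIK3C3 at 0.0531 ± 0.0751 (SD, n = 2 each). Over the 5523 protein-coding genes with a peak in both replicates and a canonical coding transcript, the median was 1.15 peaks per kb, and 8 of the 10 genes exceeded it.

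**Figure D1:**
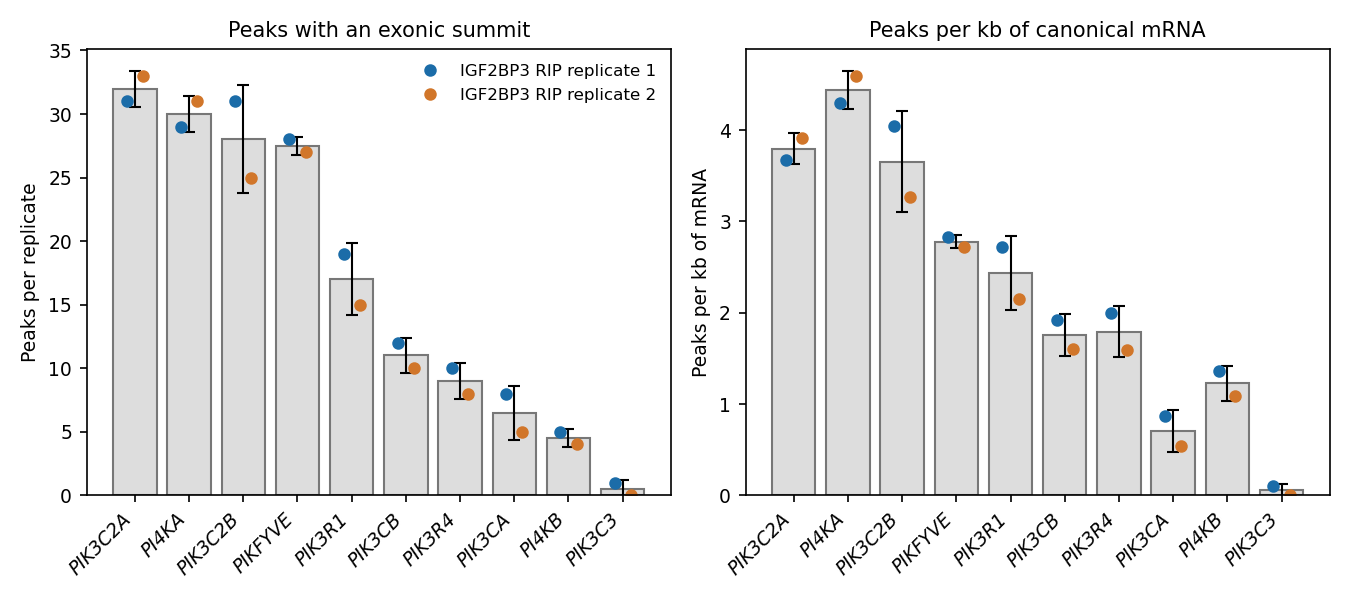
Number of peaks with an exonic summit (left) and peaks per kb of canonical mRNA (right) for each gene; bars are means, error bars SD (n = 2) and points the IGF2BP3 RIP replicates. PIK3C2A, PI4KA, PIK3C2B and PIKFYVE had from 25 to 33 peaks per replicate, and PIK3C3 had 1 and 0.

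PIK3C2A encodes a class II kinase that works in clathrin-mediated endocytosis. The gene lies on the minus strand at chr11:17077730-17207986, and its canonical mRNA of 8428 nt has 33 exons. All of its peaks had an overlapping peak in the other list, 31 of 31 and 33 of 33. Summits fell in 29 of the 33 exons in each replicate, and in both replicates these were the same 29. Peaks lay over 78.1% of the mRNA in replicate 1 and 75.8% in replicate 2, more than for any of the other 9 genes. Its highest folds, 8.55 and 7.49, averaged to a value at the 99.6th percentile of the 5523 genes. These came from different exons, exon 19 in replicate 1 and exon 5 in replicate 2. A highest fold is taken here over more peaks than in most genes, the median of the 5523 genes being 5.0 peaks. The median fold of PIK3C2A peaks was 2.99 in replicate 1 and 3.28 in replicate 2, against 2.93 over all exonic peaks in each. The exon 5 peak at chr11:17148646-17148791 had a fold of 7.49 in replicate 2 (q = 1.00e-05) and its counterpart in replicate 1 a fold of 2.63, so the 2 lists differed there. Further PIK3C2A exons had a q of at most 0.05 in 1 list and not in the other. In replicate 1 these were exon 26, with a fold of 7.54 (q = 6.12e-06) against 3.28 in replicate 2, and exon 16, with 5.26 (q = 0.00473) against 3.81. In replicate 2 they were exon 7, with 7.13 (q = 0.000129) against 2.70 in replicate 1, exon 22, with 5.89 (q = 0.00267) against 2.64, and exon 25, with 5.14 (q = 0.0072) against 2.99.

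The strongest pair by mean fold lay in exon 28, in the CDS, and both summits were at the same base, in codon 1461. Its folds were 6.94 in replicate 1 (q = 1.94e-05) and 6.70 in replicate 2 (q = 0.000129). Exon 19 came second, with folds of 8.55 (q = 4.36e-07) and 4.87 (q = 0.0392) and summits 6 nt apart. A further pair with a q of at most 0.05 in both replicates lay in exon 11, with folds of 4.54 (q = 0.0258) and 4.61 (q = 0.0392). Of the 4 such pairs over all 10 genes, 3 were in PIK3C2A. The coding exons 28 (chr11:17094261-17094385) and 19 (chr11:17117491-17117671) are shown because they carried these pairs, in hg38 on the mRNA strand, 5′ to 3′, with capitals for bases under a peak in both replicates. Every base of both exons was covered in both lists.
PIK3C2A exon 28: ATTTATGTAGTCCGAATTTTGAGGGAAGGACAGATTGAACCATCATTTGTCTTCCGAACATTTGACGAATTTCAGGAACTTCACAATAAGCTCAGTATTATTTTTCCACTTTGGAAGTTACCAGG
PIK3C2A exon 19: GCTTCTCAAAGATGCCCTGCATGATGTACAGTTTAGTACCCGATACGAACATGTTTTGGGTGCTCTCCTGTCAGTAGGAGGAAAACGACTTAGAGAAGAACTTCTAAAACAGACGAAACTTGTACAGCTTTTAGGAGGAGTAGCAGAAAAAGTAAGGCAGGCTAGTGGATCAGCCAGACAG

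Wide 3′ UTR peaks were a further feature of PIK3C2A. In replicate 1 a single peak of 2284 bp (chr11:17087582-17089865, fold 3.28) covered most of the 3′ UTR, and in replicate 2 the same stretch held a peak of 1144 bp with a fold of 5.93 (q = 0.00148), a peak of 721 bp with a fold of 5.29 (q = 0.0292) and a narrow one of 32 bp. The summits nearest the stop codon lay 58 nt past it in replicate 1 and 56 nt past it in replicate 2. PIK3R1 also had wide 3′ UTR peaks, of up to 961 bp in replicate 1 and 509 bp in replicate 2. Median peak width over all 10 genes was 111 ± 2.12 bp (SD, n = 2), and most of those peaks had their summit in the CDS.

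PIK3C2B, the class II paralogue, lies on the minus strand at chr1:204422628-204494805 and also has 33 exons. Of its peaks, 22 of 31 and 22 of 25 had an overlapping peak in the other list. The highest fold in replicate 1 was 5.63, in exon 9 (q = 0.00582), where replicate 2 had 3.15. In replicate 2 it was 6.85, in exon 23 (q = 0.000126), where replicate 1 had 2.77. By mean fold the exon 23 peaks were the strongest pair of PIK3C2B, although they shared only 12 bp, with summits at the same base in codon 1156. More even values were found in exon 12, with 4.39 and 4.52 (q = 0.109 and 0.0294). Exon 30 had a fold of 4.87 in replicate 1 (q = 0.0288) and no summit in replicate 2.

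Of the 33 exons of the class II genes, 19 had the same number and the same length in both. Within these 19 exons, summits were present in both replicates in 18 exons of PIK3C2A and 11 of PIK3C2B, and 10 exons had them in both genes. With 1 of the 19 exons lacking a summit in PIK3C2A, the last number was nearly fixed by the other counts. It does not measure agreement between the genes. The exception in PIK3C2A was exon 8, which had a summit in both replicates of PIK3C2B, with folds of 2.66 and 3.45. Exon 8 of PIK3C2A itself lay wholly under a peak in both replicates, but the summits of those peaks were in exon 7. Exon 17 had the reverse pattern of summits, with folds of 4.39 and 2.90 in PIK3C2A and no summit in PIK3C2B. Nucleotide identity of the 19 exons, without gaps, ranged from 46.4% to 78.2% with a median of 54.7%, and the longest identical run was 14 nt. Their median GC content was 38.5% in PIK3C2A and 56.0% in PIK3C2B. The folds of exon 28 were 6.94 and 6.70 in PIK3C2A and 2.64 and 3.81 in PIK3C2B. Exon 28 of PIK3C2B (chr1:204431669-204431793, 53.6% identical to that of PIK3C2A) and exon 23 (chr1:204438935-204439071) are shown for comparison with the PIK3C2A exons above, in the same notation.
PIK3C2B exon 28: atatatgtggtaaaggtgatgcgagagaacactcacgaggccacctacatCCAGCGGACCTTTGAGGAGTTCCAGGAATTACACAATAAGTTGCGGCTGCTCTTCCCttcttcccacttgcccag
PIK3C2B exon 23: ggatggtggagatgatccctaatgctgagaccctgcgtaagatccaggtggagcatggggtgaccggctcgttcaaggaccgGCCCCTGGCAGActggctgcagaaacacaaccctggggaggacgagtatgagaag
In exon 28 of PIK3C2B, 57 of 125 bases lay under a peak in both replicates, and in exon 23, 12 of 137.

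**Figure D2:**
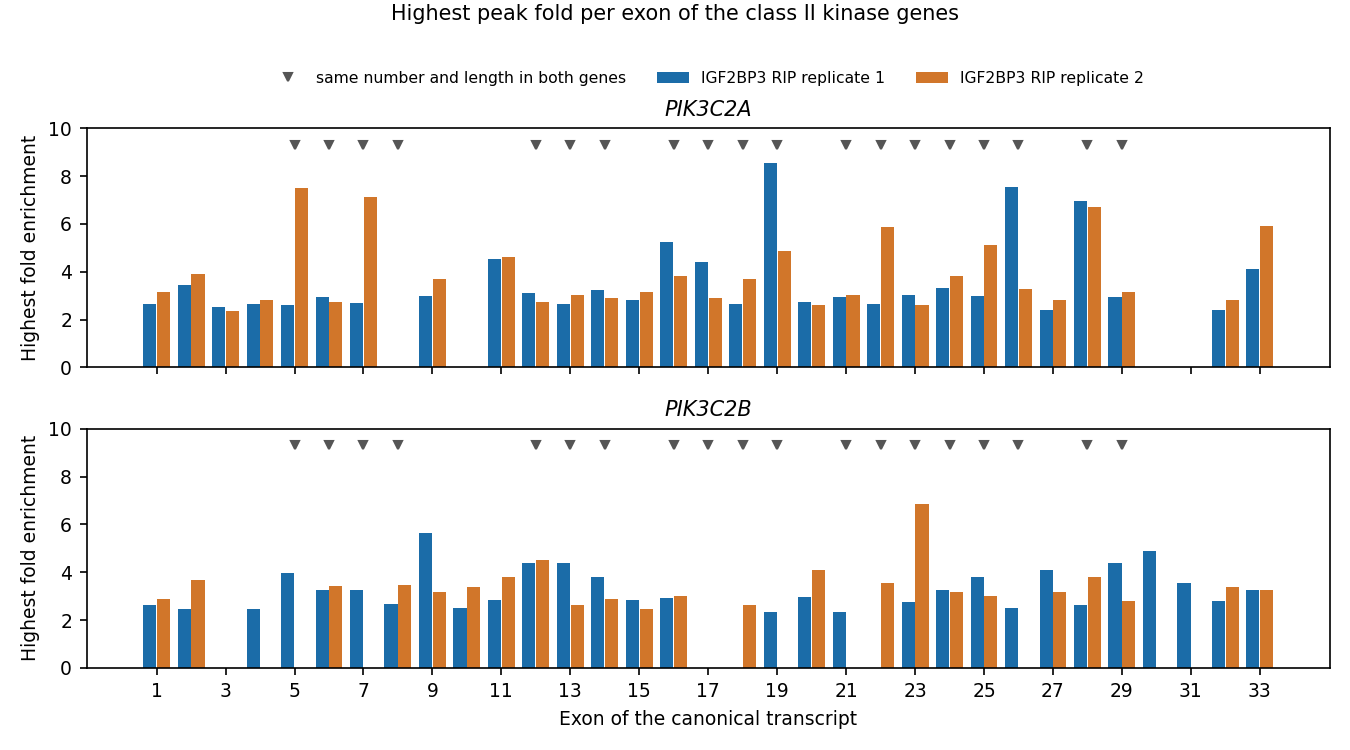
Highest fold enrichment of a peak with its summit in each exon (x axis, exon number) of PIK3C2A (top) and PIK3C2B (bottom) in both IGF2BP3 RIP replicates; no bar means no summit, and triangles mark the 19 exons of equal number and length. Exons 19 and 28 of PIK3C2A reach at least 4.87 in both replicates, whereas no exon of PIK3C2B does.

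Among class I genes, the regulatory subunit gene PIK3R1 had the most peaks. PIK3R1, which encodes the subunits that hold and restrain the catalytic partner, lies on the plus strand at chr5:68215740-68301821. Peaks overlapped between the replicates for 15 of 19 and 15 of 15. Its strongest peak was in exon 8 in both replicates, with folds of 5.72 (q = 7.53e-05) and 5.52 (q = 0.000252) and summits 5 nt apart in codons 316 and 317. This was the sole pair outside PIK3C2A with a q of at most 0.05 in both replicates. Exon 6 followed with 4.69 and 4.29 (q = 0.0427 and 0.284). Exon 13 had folds of 4.69 (q = 0.0427) and 2.89, and exon 5 had 3.10 and 5.42 (q = 0.00141 in replicate 2). PIK3R1 also held 5 and 3 of the 13 and 10 summits in 3′ UTRs of the 10 genes, the strongest with a fold of 4.74 in replicate 1 (q = 0.0315) and 3.09 in replicate 2, where the summits lay 1738 and 1729 nt past the stop codon. Exon 8 (chr5:68292259-68292361) is shown as the exon of its strongest pair, with every base under a peak in both.
PIK3R1 exon 8: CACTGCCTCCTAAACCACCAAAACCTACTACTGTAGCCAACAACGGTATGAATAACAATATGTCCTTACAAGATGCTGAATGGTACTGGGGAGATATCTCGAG

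The catalytic subunit genes of class I were covered more sparsely. PIK3CB, on the minus strand at chr3:138652698-138834928, had 5 of 12 and 4 of 10 peaks that overlapped the other replicate. Its highest folds were 4.45 in exon 19 in replicate 1 (q = 0.0427) and 4.07 in exon 12 in replicate 2 (q = 0.00267). The exon 19 peak overlapped a replicate 2 peak with a fold of 3.12 whose summit lay in the adjoining intron, and the exon 12 peak overlapped none. The strongest pair with exonic summits was in exon 18, with folds of 3.94 and 3.40, summits 8 nt apart and a q of 0.114 and 0.513. Exon 18 of PIK3CB (chr3:138683678-138683787) is shown with 79 of 110 bases under a peak in both replicates.
PIK3CB exon 18: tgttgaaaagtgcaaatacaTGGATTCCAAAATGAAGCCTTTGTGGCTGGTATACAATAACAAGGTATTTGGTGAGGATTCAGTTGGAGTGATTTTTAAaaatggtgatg
PIK3CA, which encodes the catalytic subunit most often mutated in cancer, lies on the plus strand at chr3:179148114-179240093 and had 8 and 5 peaks. Only 1 of them in each list had an overlapping peak in the other, in exon 17, with folds of 2.99 and 2.61 and summits 74 nt apart. The highest folds were 3.69 in exon 6 in replicate 1 (q = 0.114) and 3.54 in exon 11 in replicate 2 (q = 0.912), neither with a counterpart. Its 3′ UTR of 5729 nt held 1 summit in replicate 1 and 0 in replicate 2. The peaks of PIK3CA therefore overlapped the other list at 12.5% and 20.0%, and those of PIK3C2A at 100% in both lists. Peaks lay over 10.4% and 4.04% of the PIK3CA mRNA, and over 78.1% and 75.8% of that of PIK3C2A. An overlap of 1 bp is met more easily where peaks cover more of the mRNA, so these shares are not on an equal footing.

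Class III was represented by PIK3C3, the catalytic subunit of the autophagy and endosome kinase, and PIK3R4, its regulatory subunit. PIK3C3 (plus strand, chr18:41955234-42087830) had a single peak of 58 bp in exon 20 in replicate 1, with a fold of 2.36 and a q of 1, and none in replicate 2. Its canonical mRNA of 9415 nt was the second longest of the 10, with a CDS of 2664 nt and a 3′ UTR of 6693 nt. Absence from a list means that no peak passed the limit of the caller and does not show that the mRNA was not bound. PIK3R4 (minus strand, chr3:130678934-130746829) had 10 and 8 peaks, all in the CDS, and 5 in each list overlapped. Its highest folds were 3.72 in exon 14 in replicate 1 and 4.30 in exon 12 in replicate 2. The exon 12 pair was the strongest by mean fold, with 3.27 and 4.30, but its summits were 150 nt apart. No peak of PIK3R4 reached a q of 0.05, the lowest being 0.0864 in exon 12 in replicate 2.

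PI4KA, which makes the plasma membrane pool of phosphatidylinositol 4-phosphate, lies on the minus strand at chr22:20707691-20859417 and had the longest CDS of the 10, 6309 nt in 55 exons. Of its peaks, 22 of 29 and 24 of 31 overlapped the other replicate. Its highest folds, 5.75 in exon 25 in replicate 1 (q = 0.00406) and 5.37 in exon 47 in replicate 2 (q = 0.0157), again came from different exons, and the exon 25 peak had no counterpart. Exon 6 held the strongest pair, with folds of 5.54 (q = 0.0116) and 3.90 (q = 0.912), and exon 30 the next, with 4.54 (q = 0.0258) and 4.08. In replicate 2, exon 9 had a fold of 5.16 (q = 0.00155) over a replicate 1 peak of 3.53 whose summit was intronic, and exon 31 had 4.74 (q = 0.0392) against 2.48 in replicate 1. Exon 6 (chr22:20819641-20819900) is shown with 150 of 260 bases under a peak in both replicates.
PI4KA exon 6: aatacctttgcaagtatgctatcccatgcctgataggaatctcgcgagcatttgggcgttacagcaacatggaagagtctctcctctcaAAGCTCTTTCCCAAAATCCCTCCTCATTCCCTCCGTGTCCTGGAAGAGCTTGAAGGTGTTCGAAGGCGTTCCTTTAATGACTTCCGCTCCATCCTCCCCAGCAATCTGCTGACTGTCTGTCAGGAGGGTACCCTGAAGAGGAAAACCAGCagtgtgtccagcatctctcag
Reads from PI4KA can be hard to place, because the pseudogenes PI4KAP1 and PI4KAP2 on the same chromosome repeat part of it. Identical runs of at least 50 nt were found in 16 of the 55 PI4KA exons, all between exons 33 and 55. Those 16 exons held 7 of 29 summits in replicate 1 and 5 of 31 in replicate 2, exon 47 among them, and are uncertain. The other exons of the canonical mRNA held 22 and 25, exons 6, 25 and 30 among them. PI4KAP2 had 1 and 3 exonic peaks with highest folds of 2.85 and 3.28, and PI4KAP1 had 1 and 0.

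PI4KB, the Golgi enzyme, lies on the minus strand at chr1:151291797-151327715 and had 5 and 4 peaks. In replicate 2, 2 of its 4 summits lay in exons outside the canonical mRNA. The strongest peak was in exon 5 in both replicates, with folds of 4.15 (q = 0.223) and 3.15 (q = 1), and the other pair was in exon 4, with 2.45 and 2.89. PI4KA and PI4KB thus stood at the 98.5th and 53.3rd percentiles of peaks per kb.

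PIKFYVE, which turns phosphatidylinositol 3-phosphate into its bisphosphate, lies on the plus strand at chr2:208266255-208358746 and has the longest mRNA of the 10, 9908 nt in 42 exons. Overlap with the other replicate was found for 18 of 28 and 18 of 27 peaks. Its highest folds, 4.60 in exon 7 in replicate 1 (q = 0.00282) and 4.20 in exon 21 in replicate 2 (q = 0.132), were lower than those of the other genes with over 20 peaks. The strongest pair was in exon 2, where the replicate 1 summit lay in the 5′ UTR, with a fold of 4.58 (q = 0.00356), and the replicate 2 summit 48 nt away in codon 15, with 3.20 (q = 1). Exon 34 had a fold of 4.30 in replicate 1 (q = 0.00356) and exon 32 one of 3.98 in replicate 2 (q = 0.0142), each without a summit in the other list. Exon 4 had 3.93 in replicate 2 (q = 0.0294) against 2.02 in replicate 1. A pair of nearly equal fold was in exon 27, with 3.91 (q = 0.0211) and 3.83 and summits 2 nt apart in codon 1470. Exon 27 (chr2:208336046-208336200) is shown as the strongest pair with both summits in a coding exon, with 51 of 155 bases under a peak in both.
PIKFYVE exon 27: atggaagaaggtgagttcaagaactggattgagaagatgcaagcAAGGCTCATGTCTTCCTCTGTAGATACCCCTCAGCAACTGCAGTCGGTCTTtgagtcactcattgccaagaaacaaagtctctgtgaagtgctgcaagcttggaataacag

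**Figure D3:**
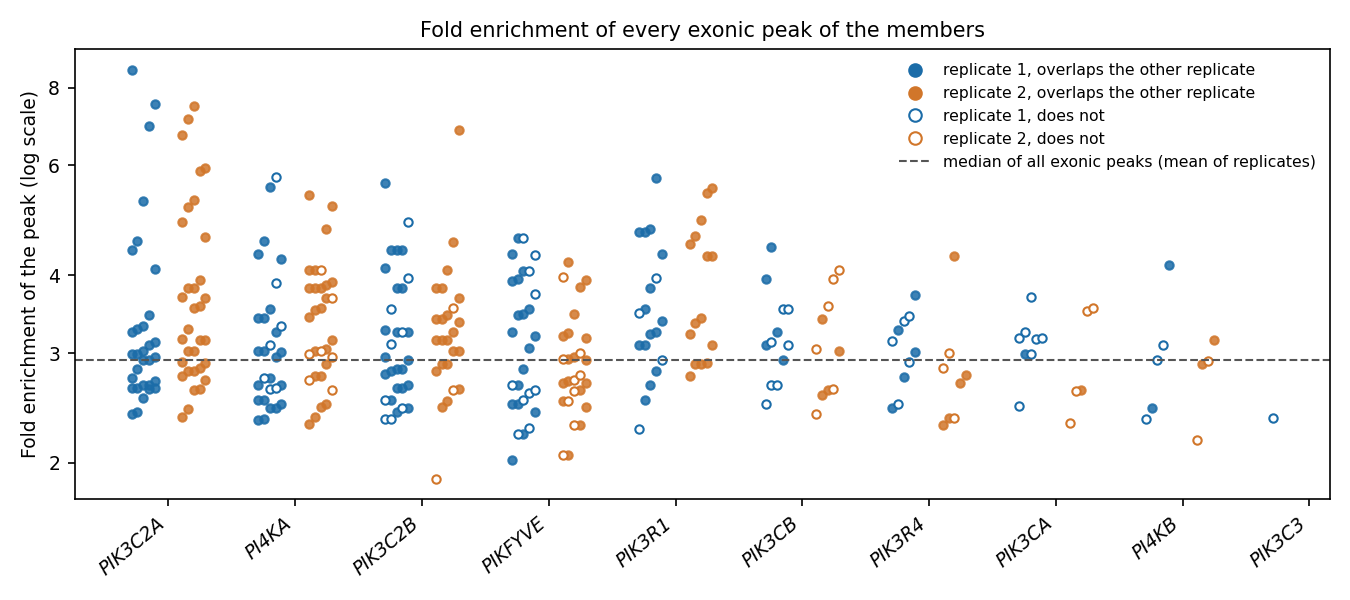
Fold enrichment (y axis, log scale) of every exonic peak of each gene in replicate 1 (blue) and replicate 2 (orange); filled points had an overlapping peak in the other list and open points had none, and the dashed line is the median of all exonic peaks, 2.93. Every point of PIK3C2A is filled, and 11 of the 13 points of PIK3CA are open.

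Over the 10 genes together, 69.5% of replicate 1 peaks and 78.5% of replicate 2 peaks overlapped the other list, a mean of 74.0% ± 6.32, compared with 62.7% ± 2.71 of all exonic peaks (SD, n = 2 each). Without PIK3C2A, left out after the data had been seen, it was 67.9% ± 6.97 (SD, n = 2), which is within the replicate spread of the value for all exonic peaks. The 123 overlapping pairs had a median distance between summits of 25 nt, and 71.5% of them lay within 50 nt, against 33 nt and 60.0% for 27002 exonic pairs overall. These distances are bounded by the overlap that defines a pair. Across the 123 pairs, Pearson's r of log2 fold was 0.191 and Spearman's rho 0.183, compared with 0.309 and 0.288 for all exonic pairs. Pairs are not independent, since they share libraries and genes. The median fold was 3.10 in replicate 1 and 3.07 in replicate 2, against 2.93 in both lists over all exonic peaks. Peaks with a q of at most 0.05 numbered 19 in each replicate, 11.5% ± 0.782 of the peaks counted here and 8.90% ± 1.69 of all exonic peaks (SD, n = 2 each). Of these, 15 of 19 and 17 of 19 overlapped some peak of the other list, but 4 of 19 overlapped one with a q of at most 0.05.

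Summits lay mainly in coding sequence. The CDS held 155 of 174 summits in replicate 1 and 140 of the 154 on canonical mRNAs in replicate 2, a share of 90.0% ± 1.29, compared with 78.0% ± 1.02 over all mRNAs (SD, n = 2 each). The 3′ UTR held 6.98% ± 0.691, compared with 18.3% ± 0.932, and the 5′ UTR 3.02% ± 0.602, compared with 3.69% ± 0.0864 (SD, n = 2 each). In the canonical mRNAs of the 10 genes, CDS made up 55.0% of the length and 3′ UTR 40.8%. Density was therefore 3.66 ± 0.263 summits per kb of CDS and 0.384 ± 0.0709 per kb of 3′ UTR (SD, n = 2 each). These densities were not taken over all mRNAs. The median CDS was 3645 nt in the 10 genes and 1845 nt in the 5523 genes, so the shares of summits by region are not on an equal footing. Summits within 200 nt of the stop codon numbered 5 and 7, 3.71% ± 1.18, against 8.43% ± 0.152 over all mRNAs (SD, n = 2 each). Along the CDS, the first, middle and last of 3 equal parts held 26.9%, 38.5% and 34.6% of CDS summits, and over all mRNAs 28.4%, 35.3% and 36.4%.

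**Figure D4:**
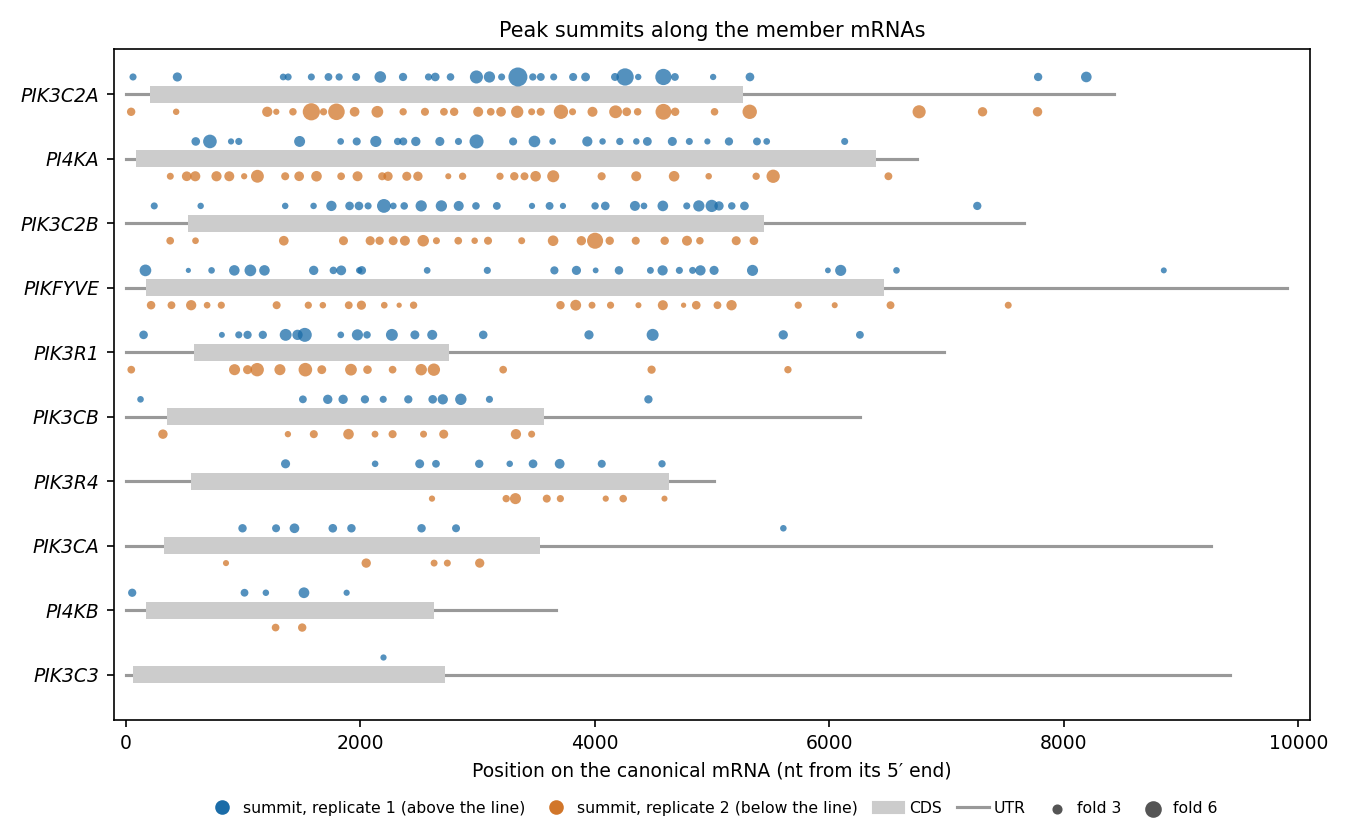
Peak summits along the canonical mRNA of each gene (x axis, nt from the 5′ end), with replicate 1 above and replicate 2 below each line, grey boxes for the CDS, thin lines for UTRs and point size by fold. The CDS held 89.1% and 90.9% of summits, and the 5 longest 3′ UTRs, those of PIK3C3, PIK3CA, PIK3R1, PIKFYVE and PIK3C2A, had from 0 to 5 per replicate.

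Of CDS peaks, 95.6% ± 0.163 touched 1 canonical exon, compared with 98.0% ± 0.286 over all genes. Every base lay in canonical exons for 45.3% ± 6.61 of them, compared with 58.5% ± 1.22 (SD, n = 2 each). The median exon at a CDS summit was 132 ± 1.77 nt long, compared with 150.5 ± 2.12 nt (SD, n = 2 each). Of the 281 canonical exons of the 10 genes, 114 had a summit in both replicates, 80 in 1 and 87 in none, with median lengths of 145, 121 and 121 nt. Peak number went with CDS length, with r = 0.817 and rho = 0.733 over the 10 genes and 0.492 and 0.486 over the 5523 genes, as a description. The genes share libraries, and mRNA level was not taken into account. For 3′ UTR length the values over the 10 genes were -0.343 and -0.345.

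TGGAC was searched on the mRNA strand, as DNA letters, within 50 nt upstream and downstream of each summit. The study names UGGAC, which holds the m6A core GGAC. It was present in 12.1% ± 1.54 of windows of the 10 genes and 12.9% ± 0.027 of windows over all mRNAs (SD, n = 2 each), and GGAC alone in 31.4% ± 1.18 and 32.0% ± 0.00221. Both shares differed by less than the replicate spread. Counted over both replicates, TGGAC was in 9 of 59 windows of PI4KA, 9 of 55 of PIK3C2B, 9 of 55 of PIKFYVE, 6 of 34 of PIK3R1 and 3 of 64 of PIK3C2A. PIK3R4 had it in 2 of 18, PIK3CB in 1 of 22, PIK3C3 in 1 of 1, and PIK3CA and PI4KB in 0 of 13 and 0 of 7. A site with a peak in both replicates can enter these counts more than once, as did that in exon 25 of PIK3C2A. None of the 3 PIK3C2A pairs with a q of at most 0.05 in both replicates had TGGAC in either window, nor had that of PIK3R1.

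Of the other genes of the pathway, 16 further phosphoinositide kinase genes were examined, and 8 of 16 had an exonic summit in both replicates, against the 28.0% of all protein-coding genes given above. None of the 16 had a q of at most 0.05 in both, against 4.93% of all protein-coding genes. PIP5K1B, a phosphatidylinositol 4-phosphate 5-kinase, had the most with 14 and 13 peaks and highest folds of 5.58 and 3.72, ahead of PIP5K1C with 10 and 6 and PIP4K2C with 6 and 7. The class I genes PIK3CD, PIK3CG, PIK3R5 and PIK3R6 and the class II gene PIK3C2G had no exonic peak in either list. Partner subunits had a summit in both replicates in 11 of 16 genes, against the same 28.0%. EFR3A, which anchors the PI4KA complex at the plasma membrane, had 20 and 19 peaks with highest folds of 6.90 and 5.35, RUBCN, a negative regulator of the class III complex, had 17 and 16, and AMBRA1 had 13 and 10. TTC7A, a scaffold of the PI4KA complex, had 11 and 4 peaks with highest folds of 4.25 and 4.75. BECN1, the class III partner in autophagy, had none.

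Genes of the phosphoinositide phosphatase families had a summit in both replicates in 23 of 33, against 28.0% of all protein-coding genes. A q of at most 0.05 in both was found for 8 of the 33, against 4.93%. SBF2 had 41 and 39 peaks, more peaks than any of the 10 kinase genes, and its highest folds were 8.28 and 7.51. SYNJ2 had 23 and 25 peaks with highest folds of 6.75 and 7.49, and MTMR2 had 23 and 18 peaks. Of the AKT and mTOR signalling genes, 19 of 24 had a summit in both replicates and 5 of 24 a q of at most 0.05 in both, again against 28.0% and 4.93%. MTOR had 38 and 37 peaks, RICTOR 21 and 27 and TSC1 23 and 24. The highest folds were 5.58 and 5.85 for GAB1, an adaptor that recruits PIK3R1, and 6.89 and 4.37 for PDPK1, the kinase that phosphorylates AKT. The median CDS length was 3645 nt in the 10 genes and from 1656 to 2224 nt in these 4 lists, so the counts are not on an equal footing. These lists too were chosen with earlier results of these data known.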

How the data were processed

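IGF2BP3 RIP-seq of OE-19 cells gave 1 deposited peak list per RIP replicate, and replicates were not pooled. Reads were mapped to hg38 and peaks called with MACS2 by the authors. The methods of the study name Tophat2 and default settings, whereas the submitters' processing notes name fastp and HISAT2, and the lists hold peaks with a −log10 p down to 2.0003, which are not limited at a q of 0.05. The deposited values are the fold enrichment (a ratio), the −log10 p and −log10 q-value at the summit, and a score that was not used further.

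Summits were placed on GENCODE 44 exons and on the canonical coding transcript of each gene, without strand, since the lists carry none. Replicate peaks overlapping by at least 1 bp were paired. Sequences were those of the GENCODE 44 transcripts, and 281 of 281 exons matched hg38. The genes and lists were chosen with earlier results of these data known. Named peaks were, for each gene, the highest fold per replicate, the overlapping pair with the highest mean fold and peaks with a q of at most 0.05; further pairs described were chosen after their values were seen. In the other lists, the 3 genes with the most peaks and the 2 with the highest mean of the highest folds, among those with a peak in both replicates, were named; genes without peaks were named after their values were seen. Position and overlap steps were tested on simulated data. Tables were handled with pandas 2.3.3 and numpy 2.4.6 in Python 3.11.15, correlations with scipy 1.17.1 and plots with matplotlib 3.10.9. Alternatives were other peak limits, gene assignments, overlap rules and windows, and leaving out each replicate.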

Additional observations from a re-analysis of the deposited data

Results flagged for a closer look

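Peaks whose summit lay in an intron of one of the 10 genes were outside the counts of the report, and are noted for that reason. There were 3 in replicate 1 and 1 in replicate 2, in PIK3CB and PI4KA, none in an exon of another gene. Each also covered bases of the exon beside its summit, namely exons 19 and 22 of PIK3CB and exons 9 and 42 of PI4KA. They are therefore not peaks confined to introns. In PIK3CB, the replicate 1 peak had a fold of 3.66 and no counterpart, and the replicate 2 peak, with 3.12, overlapped the exon 19 peak of replicate 1. In PI4KA, both were in replicate 1, with folds of 3.06 and 3.53, and overlapped exonic peaks of replicate 2. No peak list of a control sample was analysed here.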

How the results depend on the processing

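No paired analysis was possible because the input libraries were not analysed here and nothing was tested between groups. Stricter limits leave fewer peaks, and so fewer to overlap, by construction. A limit on q or p also selects for high folds, and a longer window holds TGGAC at least as often. The cause of the other changes was not tested. With a q of at most 0.05, a −log10 p of at least 5 or a fold of at least 3, the peaks per replicate fell from 166.0 to 19.0, 25.5 and 92.0, the overlap with the other replicate from 74.0% to 21.1%, 15.7% and 49.5%, and the peaks per kb from 2.26 to 0.259, 0.348 and 1.25. Under the first and second of these limits the median fold was 5.01 and 4.76. A CDS share of 92.1% was found for the p limit. Counting CDS summits per kb of CDS gave 3.66. An overlap of 50% of both peaks gave 53.2%. The median fold was 3.11 for peaks in both replicates and 3.06 without PIK3C2A, a choice made after seeing the data. TGGAC was in 10.5% of windows under the q limit, 13.9% without PIK3C2A, 6.16% with 25 nt and 26.1% with 100 nt on either side of the summit. Genes with a peak in both replicates numbered 6 under the q and p limits and 9 under the other alternatives tried. Over the 44 alternative values that used both replicates, 24 stayed within 1 SD or, for that number of genes, within 1.5 times of the reported value. With 2 replicates, leaving out either one stays within 1 SD by construction, with from 158.0 to 174.0 peaks, 69.5% to 78.5% overlap and 89.1% to 90.9% in the CDS.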
